A study of Homo sapiens with 2 samples.

Results

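Human mammosphere cells of the line MDA-MB-231 were profiled for 6 genes of secreted defence proteins: SAA1, SAA2, LCN2, DEFB1, PTX3 and SLPI. These genes had been chosen from their measured levels and ratios in these same libraries, so every difference between the doses is given as a description, with no test. All 6 were found among the 19826 genes of the count table. MDA-MB-231 is a long-used breast cancer cell line that lacks the hormone receptors and HER2 and has mesenchymal features. Its cells were adapted as flat cultures in high-glucose DMEM for 30 days, without metformin (0 mM) or with 2 mM metformin, a biguanide diabetes drug that inhibits respiratory complex I. Both groups were then grown as mammospheres, floating spheres in low-attachment plates, over 10 days and dispersed with trypsin and EDTA. Each dose was 1 library of single cells, so dose, culture and library preparation cannot be told apart.

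The acute phase response is a change in the blood proteins made by the liver and other tissues when interleukin-1, interleukin-6 and related cytokines act on them, largely through NF-kB, STAT3 and C/EBP factors. SAA1 and SAA2 encode the serum amyloid A proteins, which are its main apolipoproteins, and PTX3 encodes a long pentraxin that binds microbes and complement factors and is made at the site of inflammation. LCN2 encodes lipocalin-2, which takes iron-carrying siderophores away from bacteria, DEFB1 encodes a beta-defensin, an antimicrobial peptide of epithelia, and SLPI encodes an inhibitor of leukocyte proteases. All of these products are secreted, and several are known to be made by carcinoma cells.

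SAA1 and SAA2 are near-identical neighbours on chromosome 11, and in bead-based single-cell libraries most reads usually fall near the end of the transcript. The coding part of their last exons is shown for that reason, with the 9 differing bases of 139 in capitals, from GENCODE release 29 on GRCh38 (chr11:18269717-18269855, plus strand, for transcript SAA1-201; chr11:18245377-18245515, minus strand, for SAA2-201), written 5′ to 3′.
SAA1: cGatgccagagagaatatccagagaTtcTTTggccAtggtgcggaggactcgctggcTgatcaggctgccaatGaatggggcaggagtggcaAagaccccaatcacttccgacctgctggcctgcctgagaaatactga
SAA2: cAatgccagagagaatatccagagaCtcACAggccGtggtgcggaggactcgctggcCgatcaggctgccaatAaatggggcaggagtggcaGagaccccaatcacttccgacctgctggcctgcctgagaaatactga
Over the whole coding sequence of 369 bases the pair differed at 11, an identity of 97.0%. After the stop codon 119 bases aligned with 14 differing and 30 more were gaps. Of all runs of 50 bases in SAA1-201, 193 of 566 also lay in SAA2-201. Reads within such runs cannot be assigned to either gene, and how the authors' counting divided them is not given in the sources used here. Each SAA value is therefore uncertain in its split. Sums of both genes, which do not depend on it, are given for the levels, the shares of cells and the classes.

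The RefSeq promoter table used here held 2 of the 6 genes, LCN2 and PTX3, whose ratios between doses had opposite directions. The 250 bases before each start site are shown on GRCh38.p14 for the NF-kB type motif, which is marked in capitals. They lie on the plus strand at chr9:128149203-128149452 (LCN2) and chr3:157436600-157436849 (PTX3), 5′ to 3′.
LCN2: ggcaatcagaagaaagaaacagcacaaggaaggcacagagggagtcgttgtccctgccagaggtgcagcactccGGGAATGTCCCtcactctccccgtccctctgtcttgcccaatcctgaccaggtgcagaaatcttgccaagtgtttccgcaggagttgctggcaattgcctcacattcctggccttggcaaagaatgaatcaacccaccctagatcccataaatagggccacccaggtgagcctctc
PTX3: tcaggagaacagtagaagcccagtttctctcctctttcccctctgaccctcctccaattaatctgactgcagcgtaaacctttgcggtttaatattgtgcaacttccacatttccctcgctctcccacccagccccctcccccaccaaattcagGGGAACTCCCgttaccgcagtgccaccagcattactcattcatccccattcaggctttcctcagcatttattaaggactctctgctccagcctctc
PTX3 held 1 match, on the minus strand and beginning 96 bases before the start, to the motif GGGA, any base, TT, any base, CC. That motif was present in 1.40% of 35116 promoter windows. The capitals in LCN2 are 2 overlapping matches, 176 and 175 bases before the start on opposite strands, to a looser motif with any 4 bases between GGGA and CC. The looser motif was added after the windows had been read and was present in 25.6% of the windows. A C/EBP motif (TT, any base, C, any 2 bases, AA) occurred once in each window and in 36.8% of all windows. Neither window held the STAT motif (TTC, any 3 bases, GAA; 7.66% of windows) or the interferon response motif (GAAA, any 2 bases, GAAA; 3.57%). All motifs were searched on both strands over 300 bases, and a match is only a run of letters.

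The 0 mM library held 1000 cells with 4403045 UMIs (unique molecular identifiers, each marking 1 captured transcript), and the 2 mM library 991 cells with 3264343 UMIs. The median was 3386 UMIs per cell at 0 mM and 2509 at 2 mM. Levels are given in CPM, the UMIs of a gene summed over all cells of a library per 1000000 UMIs of that library. The 95% intervals in parentheses are exact and cover counting error only, which leaves out the spread between cells and between cultures. For 3 UMIs the level is 0.681 CPM without metformin and 0.919 CPM with it. Of 7 markers of the labelled line, 6 were present in both libraries, while SPARC had 1 and 3 UMIs. VIM (3271 and 1596 CPM), CD44 (372 and 262), AXL (172 and 110) and ZEB1 (119 and 69.8) were lower at 2 mM, FN1 (261 and 502) and S100A4 (968 and 2038) were higher, and the list summed to 5164 and 4579 CPM. The epithelial markers summed to 976 and 1126 CPM, with CDH1 at 2 and 0 UMIs. PTPRC, which defines leukocytes, had 0 and 1 UMI. The summed level of the 3 measured neutrophil markers was 2.5 CPM at 0 mM and 7.96 CPM at 2 mM, against 22.9 and 187 CPM of LCN2. Of the 5 measured leukocyte markers, summed to 103 and 30.9 CPM, most came from LAPTM5 (369 and 65 UMIs). The hepatocyte markers SERPINA1 and APOA1 summed to 49.5 and 80.3 CPM, nearly all of it SERPINA1. The 6 fibroblast markers summed to 2.73 and 4.60 CPM, and KDR, the 1 endothelial marker measured, had 4 and 12 UMIs. The part of any such cells in the levels was not tested.

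SAA1, SAA2, LCN2 and DEFB1 had higher levels in the 2 mM library, PTX3 had a lower level, and the intervals of SLPI overlapped. SAA1 had 6173 UMIs, or 1402 CPM (1367 to 1437), at 0 mM and 11037 UMIs, or 3381 CPM (3318 to 3445), at 2 mM. Its ratio of 2 mM over 0 mM was 2.41 (2.34 to 2.49). For SAA2 the level was 302 CPM (286 to 319) without metformin and 975 CPM (941 to 1010) with it, and the ratio was 3.23 (3.03 to 3.45). Added together, which removes the uncertainty of the split, the SAA pair had 1704 and 4356 CPM and a ratio of 2.56 (2.49 to 2.63). SAA2 made up 17.7% (16.9 to 18.6) of the pair's UMIs at 0 mM and 22.4% (21.7 to 23.1) at 2 mM. SAA4, the constitutive member of the family, had 7.04 and 17.5 CPM, a ratio of 2.48 (1.57 to 3.97), but lay under the 50 CPM needed for comparison.

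PTX3, the other acute phase member, went the opposite way. It had 1109 UMIs, or 252 CPM (237 to 267), at 0 mM and 388 UMIs, or 119 CPM (107 to 131), at 2 mM. That is a ratio of 0.472 (0.419 to 0.530), or 2.12-fold lower at 2 mM.

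Among the antimicrobial members, LCN2 had 101 UMIs at 0 mM, 22.9 CPM (18.7 to 27.9), and 612 UMIs at 2 mM, 187 CPM (173 to 203). Its ratio was 8.17 (6.61 to 10.2). DEFB1 had 12 UMIs at 0 mM, 2.73 CPM (1.41 to 4.76), and 234 UMIs at 2 mM, 71.7 CPM (62.8 to 81.5). Its ratio of 26.3 had a wide interval (14.8 to 51.6) because of the 12 UMIs. The protease inhibitor SLPI had 92 UMIs, 20.9 CPM (16.8 to 25.6), and 94 UMIs, 28.8 CPM (23.3 to 35.2). Its ratio was 1.38 (1.02 to 1.86), the CPM intervals overlapped, and the gene lay under 50 CPM in both libraries.

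**Figure D1:**
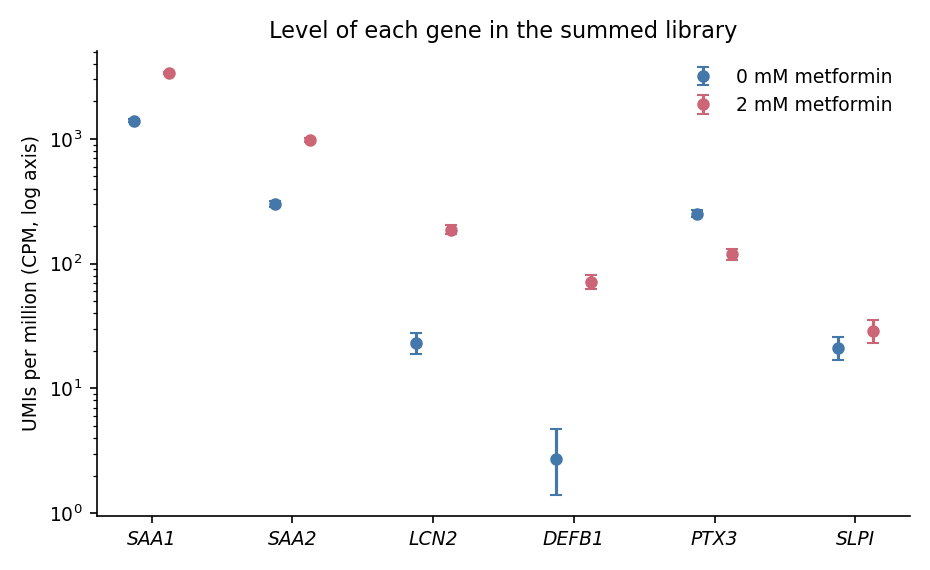
Level of each gene in CPM (UMIs per 1000000, log axis) in the summed 0 mM and 2 mM libraries, 1 library per dose, with exact 95% Poisson intervals for counting error. Points of SAA1, SAA2, LCN2 and DEFB1 lie higher at 2 mM, PTX3 lies lower (252 and 119 CPM) and the SLPI intervals overlap.

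A gene was described as higher or lower where its ratio reached 1.5 or its inverse. Only the 4105 genes that had 50 CPM or more at either dose, and 50 UMIs or more in all, were compared. Of the 6 genes, 5 met that minimum, of which 4 were higher and 1 was lower, where 5.04% of the 4105 genes were higher and 3.31% were lower (207 and 136 genes, or 148 and 216 with TMM scaling, which sets the totals by a trimmed mean of all genes' ratios). Since these ratios led to the choice of the genes, nothing is read from that count. Counted from the highest ratio, DEFB1 was number 1, LCN2 4, SAA2 9 and SAA1 26. PTX3 was number 19 from the lowest.

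The share of cells that carried each gene was compared next. At a fixed number of UMIs per cell this share rises with the level of a gene. It is therefore not separate support for a difference. For this comparison 1000 UMIs were drawn at random from each cell, and 56 shallower cells at 0 mM and 191 at 2 mM were left out. Of the 944 cells at 0 mM, 47.0% (43.8 to 50.3) then carried SAA1, and of the 800 cells at 2 mM, 81.4% (78.5 to 84.0) did. SAA2 was found in 18.4% (16.0 to 21.1) and 44.6% (41.1 to 48.1), and either gene of the pair in 50.3% (47.1 to 53.6) and 84.0% (81.3 to 86.5). LCN2 was found in 2.01% (1.22 to 3.13) and 13.8% (11.4 to 16.3), and DEFB1 in 0.318% (0.0656 to 0.926) and 6.0% (4.46 to 7.88). The share with PTX3 was 19.2% (16.7 to 21.8) without metformin and 7.38% (5.66 to 9.41) with it. For SLPI the intervals overlapped between the libraries, at 0.953% (0.437 to 1.80) and 2.5% (1.53 to 3.83). Counting only cells with 2 or more UMIs, the difference in DEFB1 was 0.394 points (-0.452 to 1.27), an interval that includes 0.

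Without thinning, SAA1 was found in 656 of 1000 cells at 0 mM and 879 of 991 at 2 mM, SAA2 in 352 and 634, and LCN2 in 59 and 234. DEFB1 was found in 7 and 128 cells, PTX3 in 400 and 163, and SLPI in 26 and 56. RNA set free from other cells can add single UMIs to a cell, and with 1 cell line there was no cell type lacking these genes to measure that background. None of the 6 genes was found in 39.6% (36.5 to 42.8) of thinned cells at 0 mM and 13.5% (11.2 to 16.1) at 2 mM. At least 2 of the 6 genes were found in 23.5% (20.8 to 26.4) and 54.4% (50.9 to 57.9), and at least 3 in 3.71% and 13.5%. Cells with 4 of them numbered 3 and 10, and no cell carried 5. Together the genes made up 0.200% of all UMIs at 0 mM and 0.476% at 2 mM, with 85.1% and 91.5% of these coming from the SAA pair.

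Among cells that carried the gene, SAA1 averaged 2.89 UMIs per 1000 at 0 mM and 4.29 at 2 mM, and SAA2 1.67 and 2.21. LCN2 averaged 1.21 and 1.40 in its carriers and PTX3 1.51 and 1.36. SAA1 was spread unevenly over the cells of both libraries. Cells without it made up 53.0% at 0 mM and 18.6% at 2 mM, where a Poisson spread of the same mean would leave 25.7% and 3.05%. Cells with 10 or more SAA1 UMIs per 1000 numbered 10 (1.06%) at 0 mM and 57 (7.13%) at 2 mM. The variance of SAA1 was 3.77 times its mean at 0 mM and 3.74 times at 2 mM. The corresponding values were 2.41 and 2.96 for SAA2, 1.41 and 1.94 for LCN2 and 2.43 and 2.13 for PTX3.

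**Figure D2:**
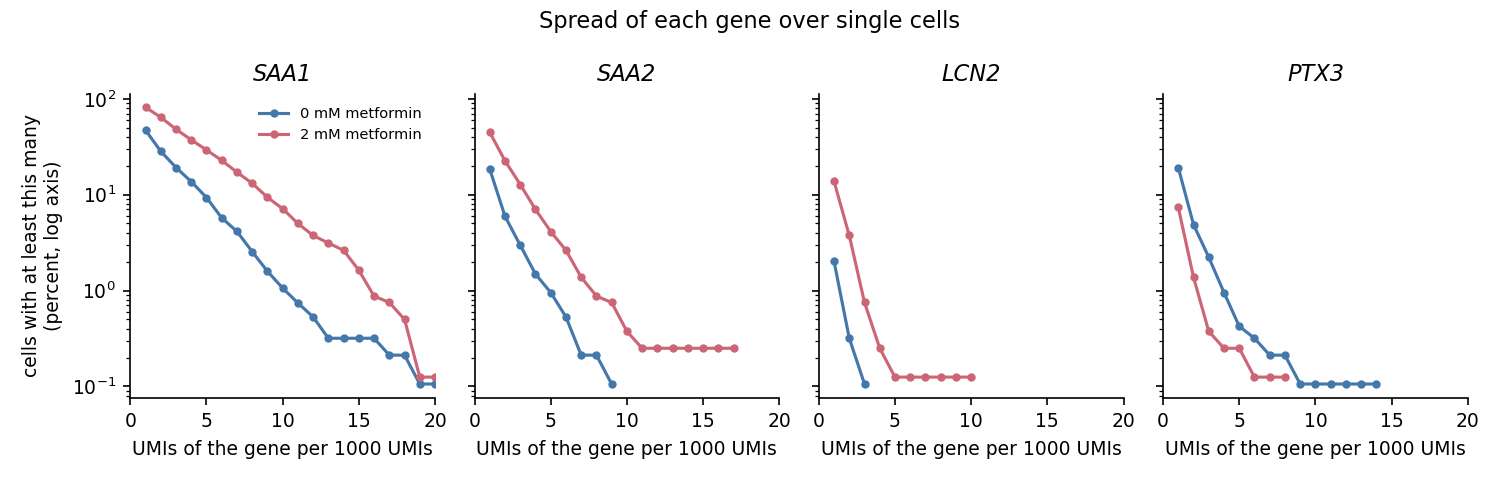
Percent of cells (log axis) with at least the given number of UMIs of SAA1, SAA2, LCN2 and PTX3, each cell thinned to 1000 UMIs (944 cells at 0 mM, 800 at 2 mM). The 2 mM line lies above the 0 mM line at 1 UMI for SAA1, SAA2 and LCN2 and under it for PTX3; points near the foot of the axis stand for single cells.

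UMIs of each gene were uneven over cells ranked by their unthinned UMIs of the gene, a ranking that favours deep cells. The top SAA1, LCN2 and PTX3 cells at 0 mM had 15783, 18244 and 23485 UMIs of all genes. After thinning to 1000 UMIs, those LCN2 and PTX3 cells held 0 UMIs of the gene. The 5% of cells with the most SAA1 UMIs held 40.8% of all SAA1 UMIs at 0 mM and 27.9% at 2 mM. For SAA2 the shares were 54.1% and 36.3%, and for LCN2 91.1% and 58.5%. At 0 mM that 5% was 50 cells, where LCN2 had 59 carriers in all. PTX3 was the exception, with 49.2% at 0 mM and 67.0% at 2 mM. A single cell with 58 LCN2 UMIs gave 9.48% of that gene's UMIs at 2 mM. A single cell held 5 of the 12 DEFB1 UMIs at 0 mM (41.7%), and without the top cell of each library the ratio of DEFB1 was 43.6 in place of 26.3. A single cell with 32 SLPI UMIs gave 34.8% of that gene's UMIs at 0 mM, and without the top cells the ratio of SLPI was 1.93 in place of 1.38. Without the 5% of cells with the most LCN2 per UMI in each library its ratio was 49.3, from the few 0 mM UMIs that were left.

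Levels were then compared across interferon and cell cycle classes, which are ranges of a score and not cell types. Interferon-high cells were those in the upper range of summed UMIs of 25 interferon-induced genes, at 6 or more per 1000. Ties at 6 made this 27.4% of the cells of both libraries in place of the 25% aimed at, with 42 cells at 6 and 47 at 5. Cycling cells had 3 or more UMIs of 43 S-phase or of 53 G2/M genes, with 262 cells at that limit and 358 just under it. Interferon-high cells numbered 315 (33.4%) at 0 mM and 162 (20.3%) at 2 mM, and cycling cells 595 (63.0%) and 436 (54.5%). Median depth was 3334 UMIs in interferon-high and 3751 in interferon-low cells at 0 mM, and 3307 and 3009 at 2 mM.

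The summed levels of PTX3 and SLPI were higher in interferon-high cells at both doses. PTX3 had 441 CPM (406 to 478) in interferon-high and 167 CPM (152 to 182) in interferon-low cells at 0 mM, a ratio of 2.65 (2.34 to 2.99). At 2 mM it had 305 CPM (266 to 348) and 65.7 CPM (55.9 to 76.8), a ratio of 4.64 (3.77 to 5.73). This held in cycling cells (2.91 at 0 mM and 3.99 at 2 mM) and in low-cycle cells (2.28 and 5.36). At 0 mM SLPI had 52.7 and 6.66 CPM, and its ratio of 7.92 (4.77 to 13.7) was 4.37 (2.49 to 7.91) without the cell of 32 UMIs. At 2 mM it had 63.0 and 17.5 CPM, a ratio of 3.61 (2.31 to 5.63). Its carriers among thinned cells were few. At 0 mM they were 5 of 315 interferon-high (1.59%; 0.517 to 3.67) and 4 of 629 interferon-low cells (0.636%; 0.174 to 1.62), which overlap. At 2 mM they were 12 of 162 (7.41%; 3.89 to 12.6) and 8 of 638 (1.25%; 0.543 to 2.46).

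The SAA pair was lower in interferon-high cells, and this was seen in low-cycle cells. SAA1 had 1144 CPM (1088 to 1203) in interferon-high and 1529 CPM (1486 to 1574) in interferon-low cells at 0 mM, and 2952 CPM (2827 to 3080) and 3560 CPM (3485 to 3636) at 2 mM. Within low-cycle cells the ratio was 0.507 (0.464 to 0.553) at 0 mM and 0.656 (0.611 to 0.704) at 2 mM. Within cycling cells it was 0.95 (0.878 to 1.03) and 0.989 (0.926 to 1.06), intervals that include 1. SAA2 had ratios of 0.358 (0.291 to 0.437) and 0.546 (0.473 to 0.628) in low-cycle cells and 0.859 (0.715 to 1.03) and 1.01 (0.896 to 1.14) in cycling cells. For both genes added together the ratio was 0.477 (0.440 to 0.517) and 0.631 (0.592 to 0.672) in low-cycle cells and 0.934 and 0.994 in cycling cells, where both intervals include 1. Over all cells, the share with SAA1 differed between the interferon classes by less than counting error. It was 46.7% of interferon-high and 47.2% of interferon-low cells at 0 mM, and 80.9% and 81.5% at 2 mM. Within cycle classes at 0 mM it was 46.0% and 57.5% in low-cycle and 47.2% and 42.0% in cycling cells. These are opposite directions, with overlapping intervals in each class. For SAA2 in low-cycle cells at 0 mM the intervals did not overlap. They were 5.15% to 15.7% in interferon-high and 19.3% to 31.4% in interferon-low cells. The SAA2 intervals overlapped in cycling cells at 0 mM and in both cycle classes at 2 mM.

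The summed level of LCN2 was lower in cycling than in low-cycle cells. It had 15.8 CPM (11.5 to 21.2) in cycling and 36.5 CPM (27.7 to 47.3) in low-cycle cells at 0 mM, and 125 CPM (109 to 142) and 285 CPM (257 to 317) at 2 mM. The ratio of cycling over low-cycle was 0.431 (0.284 to 0.651) and 0.438 (0.370 to 0.518). Its ratio of interferon-high over interferon-low was 0.814 (0.504 to 1.28) at 0 mM and 1.55 (1.29 to 1.84) at 2 mM. The value at 2 mM was 0.953 when only the upper 10% of cells counted as interferon-high, so no direction is given for it. Over all cells SAA1 was also lower in cycling cells, at ratios of 0.763 (0.725 to 0.803) and 0.817 (0.786 to 0.848). PTX3 was too, at 0.835 (0.739 to 0.944) and 0.732 (0.595 to 0.902). For SAA1 this was seen in interferon-low cells only, with 1285 CPM in cycling and 2099 CPM in low-cycle cells at 0 mM. At 2 mM they had 3144 and 4247 CPM. Interferon-high cells went the other way with overlapping intervals, at 1220 and 1064 CPM at 0 mM and 3109 and 2785 CPM at 2 mM. The PTX3 intervals of cycling and low-cycle cells overlapped within each interferon class at both doses. With 2 or more cycle UMIs as the limit, PTX3 at 0 mM had a ratio of 1.01. The SAA pair added together had 0.747 (0.713 to 0.782) and 0.820 (0.793 to 0.848) in cycling over low-cycle cells. DEFB1 at 2 mM had 75.1 CPM in cycling and 64.6 CPM in low-cycle cells, a ratio of 1.16 (0.878 to 1.55) whose interval includes 1 and which was 2.69 with the limit of 2 UMIs. Its summed level at 2 mM was lower in interferon-high than in interferon-low cells, at 47.6 and 77.8 CPM and a ratio of 0.612 (0.411 to 0.885). That ratio was 0.526 (0.292 to 0.889) in cycling cells and 0.746 (0.416 to 1.28), an interval that includes 1, in low-cycle cells. With the upper 40% as interferon-high it was 0.820. The shares of thinned cells with DEFB1 overlapped, at 4.32% (1.75 to 8.70) and 6.43% (4.65 to 8.62). At 0 mM its 12 UMIs were too few to compare classes.

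**Figure D3:**
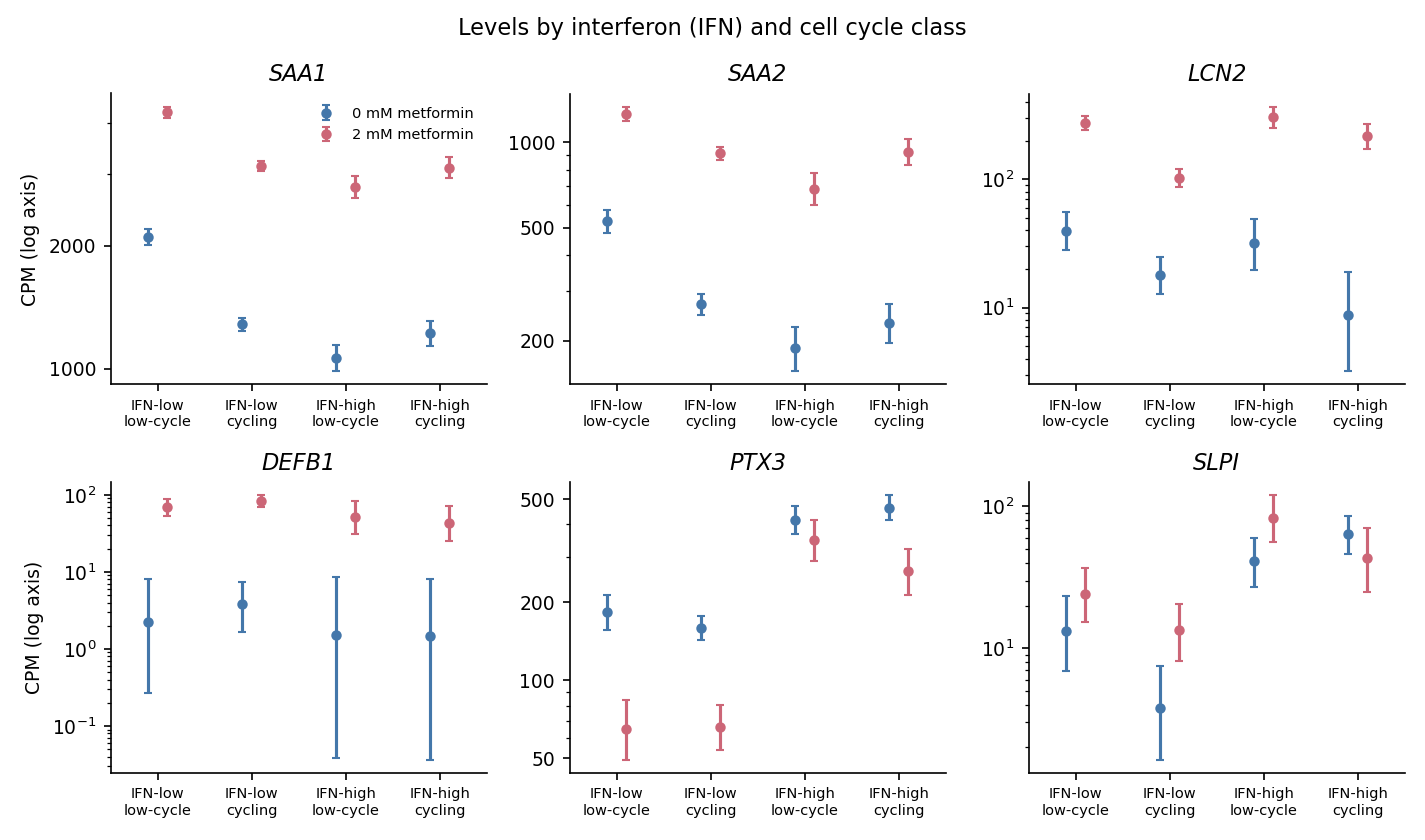
Level of each gene in CPM (log axis) in 4 classes of cells by interferon (IFN) score and cell cycle score at 0 mM and 2 mM, with exact 95% Poisson intervals for counting error. All 2 mM points of SAA1, SAA2, LCN2 and DEFB1 lie above all of their 0 mM points, while PTX3 is ordered first by interferon class (441 and 167 CPM at 0 mM).

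Ordered over the 4 joint classes and both doses, SAA1 was highest in interferon-low low-cycle cells at 2 mM (4247 CPM) and lowest in interferon-high low-cycle cells at 0 mM (1064 CPM). Its lowest 2 mM class, interferon-high low-cycle cells (2785 CPM), lay above its highest 0 mM class, interferon-low low-cycle cells (2099 CPM). The cycling neighbours in that order had overlapping intervals at each dose (3144 and 3109 CPM at 2 mM, 1285 and 1220 CPM at 0 mM). Intervals of the lowest SAA1 class and its neighbour (1064 and 1220 CPM) also overlapped. SAA2 had the same extremes, from 189 to 1256 CPM, and its lowest class overlapped the next (231 CPM). LCN2 ranged from 8.71 to 39.9 CPM over the 0 mM classes and from 102 to 305 CPM over the 2 mM classes. DEFB1 ranged from 1.45 to 3.8 CPM, with overlapping intervals, and from 43.6 to 82.8 CPM. PTX3 was highest in interferon-high cells at 0 mM (464 CPM in cycling and 417 CPM in low-cycle cells), then in interferon-high cells at 2 mM (348 CPM in low-cycle and 264 CPM in cycling cells). Its lowest levels were 66.1 and 65.0 CPM in interferon-low cells at 2 mM. In that order the intervals of neighbours overlapped from 464 to 264 CPM, between 183 and 160 CPM and between 66.1 and 65.0 CPM.

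Ratios between doses were also taken within each class. SAA1 had a ratio of 2 mM over 0 mM of 2.58 in interferon-high, 2.33 in interferon-low, 2.47 in cycling and 2.31 in low-cycle cells. SAA2 had 3.84, 3.01, 3.53 and 2.86 in the same order, and the pair added together 2.78, 2.45, 2.65 and 2.41. LCN2 had 13.0 (8.64 to 20.2) in interferon-high and 6.84 (5.33 to 8.89) in interferon-low cells, and 7.93 and 7.81 in cycling and low-cycle cells. DEFB1 had between 23.3 and 33.6, from 2 to 10 UMIs at 0 mM in each. PTX3 had 0.692 (0.590 to 0.809) in interferon-high and 0.394 (0.327 to 0.472) in interferon-low cells. In interferon-high low-cycle cells its ratio was 0.837 (0.670 to 1.04), an interval that includes 1. With the 2 mM levels weighted to the class shares of 0 mM, the ratio of PTX3 was 0.556 in place of 0.472. SLPI had 1.19 (0.804 to 1.76) in interferon-high and 2.62 (1.51 to 4.72) in interferon-low cells. It had 1.04 (0.658 to 1.62) in cycling, 1.63 (1.05 to 2.53) in low-cycle and 0.682 (0.359 to 1.23) in interferon-high cycling cells. Whether these ratios differ between classes was not tested.

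In single cells SAA1 and SAA2 went together, and the other genes did so little. At 0 mM, SAA2 was found in 143 of 444 SAA1 carriers (32.2%; 27.9 to 36.8) and in 31 of 500 other cells (6.2%; 4.25 to 8.69). At 2 mM it was found in 336 of 651 carriers (51.6%; 47.7 to 55.5) and in 21 of 149 others (14.1%; 8.94 to 20.7). Pearson's r of log2 counts per 10000 plus 1 over cells of 1 library, which share depth and preparation, was 0.585 (1000 cells) and 0.562 (991 cells). Cells with 6 or more SAA1 UMIs per 1000 carried SAA2 in 66.7% of 54 cells at 0 mM and 75.3% of 182 cells at 2 mM. Reads from the shared runs could be counted for either gene, and their part in this link was not tested.

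At 2 mM, LCN2 carriers had SAA1 more often than other cells and SAA2 about as often; the contrast between SAA1 and SAA2 was not tested. SAA1 was found in 102 of 110 LCN2 carriers (92.7%; 86.2 to 96.8) and in 549 of 690 other cells (79.6%; 76.4 to 82.5). SAA2 was found in 49 LCN2 carriers (44.5%; 35.1 to 54.3) and in 308 other cells (44.6%; 40.9 to 48.4). At 2000 UMIs per cell the gap in SAA1 was 2.76 points in place of 13.2, and with barcodes 1 base apart merged it was 3.86 points. LCN2 itself was found in 5.37% of cells with no SAA1 UMI and in between 13.3% and 17.0% of cells with 1 or more. LCN2 and DEFB1, the members with the highest ratios, were in the same cell 3 times: 3 of 48 DEFB1 carriers (6.25%; 1.31 to 17.2) and 107 of 752 others (14.2%; 11.8 to 16.9) had LCN2, with intervals that overlap. PTX3 showed no link to SAA1 beyond counting error. SAA1 was found in 81 of 181 PTX3 carriers (44.8%; 37.4 to 52.3) and 47.6% (44.0 to 51.2) of others at 0 mM, and in 49 of 59 (83.1%; 71.0 to 91.6) and 81.2% (78.2 to 84.0) at 2 mM. LCN2 was found in 13 of 59 PTX3 carriers (22.0%; 12.3 to 34.7) and 13.1% (10.7 to 15.7) of others at 2 mM, which overlap.

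**Figure D4:**
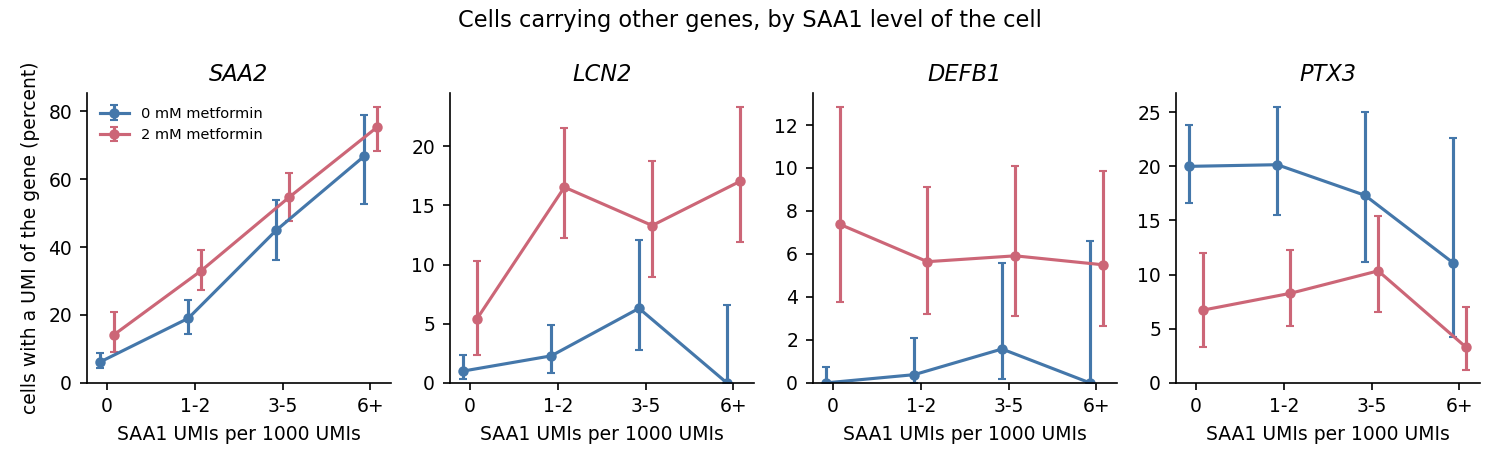
Percent of cells with a UMI of SAA2, LCN2, DEFB1 and PTX3 in cells with 0, 1 to 2, 3 to 5 and 6 or more SAA1 UMIs per 1000, at 0 mM and 2 mM, with exact 95% binomial intervals for counting error; the vertical axes differ. SAA2 is carried by more cells at each step of SAA1 (from 6.2% to 66.7% at 0 mM and from 14.1% to 75.3% at 2 mM), while DEFB1 at 2 mM stays between 5.49% and 7.38%.

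For each gene the 5 most alike of 7326 other genes were found by the mean of Pearson's r over the cells of each library, and read only at a mean r of 0.15 or more. All of these correlations were weak and depend on depth, so they are a description. PTX3 was most like SDC4 (0.289), a syndecan, and IFIT3 (0.259), CXCL11 (0.253), TNFAIP2 (0.250) and GBP4 (0.246), which are genes induced by interferon or TNF. IFIT3 is also among the genes that set the interferon classes. SAA1 was most like RPS19 (0.262), RPS28, the complement gene C3 (0.241) and FTL, and SAA2 like C3 (0.221), RPS19, SSR4, RPL37 and RPL11. These values were lower at 2 mM than at 0 mM. For SAA1, r was 0.348 at 0 mM and 0.177 at 2 mM with RPS19, and 0.351 and 0.134 with RPS28. It was 0.313 and 0.170 with C3, and 0.367 and 0.114 with FTL. For SAA2 it was 0.256 and 0.186 with C3, and 0.274 and 0.115 with RPL11. LCN2 was most like HLA-B (0.186), HLA-DRA (0.177), SERPINA1 (0.172) and HLA-C, of which all but SERPINA1 present antigens. SLPI reached 0.15 with HLA-F (0.168), IGFBP6 (0.160) and CCL5 (0.158), and DEFB1 with HMGB3 (0.151) alone. In cells thinned to 1000 UMIs the numbers of these 5 genes still among the first 5 were 3 for SAA1, 2 for SAA2, 3 for LCN2, 0 for DEFB1, 2 for PTX3 and 1 for SLPI. C3, which is also an acute phase gene, then had a mean r of 0.126 with SAA1 (number 27) and 0.0497 with SAA2 (number 255). It was found in 11.6% of cells with no SAA1 UMI and 29.6% of cells with 6 or more at 0 mM, and in 25.5% and 41.8% at 2 mM.

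Of the 42 other genes of these pathways that could be compared, 11 (26.2%) were higher and 1 was lower, against 5.04% and 3.31% of the 4105 genes, and with TMM scaling 8 were higher and 1 lower. The lists were chosen with earlier results of these data known, so nothing particular to them is read from the count. The median log2 ratio over all 4105 genes was 0.02. Of 34 listed acute phase genes 8 could be compared, with 3 higher, 0 lower and a median log2 ratio of 0.30. The 3 were the complement component C3 (189 and 475 CPM, ratio 2.52), fibronectin FN1 (261 and 502 CPM, 1.92) and the protease inhibitor SERPINA1 (48.1 and 78.1 CPM, 1.62). Among the lowest were the metallothionein MT2A (0.729) and the superoxide dismutase SOD2 (0.810).

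Of 39 further antimicrobial and protease inhibitor genes 6 could be compared, with a median of 0.06. The protease inhibitor SPINT2 was higher (156 and 241 CPM, ratio 1.55), though with TMM scaling it was 1.46 and the list's median was -0.02. TFPI (1.32) and CST3 (1.06) followed, and TFPI2 (0.968), SERPINB1 (0.978) and CSTB (1.03) had the lowest ratios.

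Of 25 chemokines and cytokines 9 could be compared, with 4 higher, 1 lower and a median of 0.51. The neutrophil chemokine CXCL1 had 195 and 572 CPM, a ratio of 2.93, and TNFSF10, which encodes TRAIL, had 1.78. IL32 (1.58) and CSF1 (1.5) were just over the limit and lay under it with TMM scaling, at 1.49 and 1.41. EBI3, a subunit of interleukin-27 and interleukin-35, was lower, at 76.5 and 23.0 CPM and a ratio of 0.300. CCL5 (1.21) and IL8 (1.32) were the next lowest, and the inducer IL6 had 97.4 and 130 CPM, a ratio of 1.34.

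Of 28 receptors and binding partners of the members 5 could be compared, and none passed 1.5-fold. ANXA2 had a ratio of 1.06, TXN 1.02, PLSCR1 0.890 and TXNRD1 0.777. The median was 0.03, and -0.05 with TMM scaling. Of 51 inducers of these genes, from cytokine receptors to NF-kB, STAT3 and C/EBP factors, 14 could be compared, with 3 higher, 0 lower and a median of 0.12. LIFR (26.1 and 58.8 CPM, ratio 2.25), the interleukin-1 receptor kinase IRAK1 (1.78) and the oncostatin M receptor OSMR (1.67) were higher. The lowest were TNFRSF1A (0.840), NFKBIZ (0.860) and TNIP1 (0.885).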

How the data were processed

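The values are whole UMI counts per gene and barcode, as the authors deposited them: 19826 genes in 2000 barcodes, 1000 of each library by column name, with 0 columns unmapped. Per the submitters' processing notes, bcl2fastq, STAR 2.5.0a and the build hg19 were used. Not given in the sources used here are the annotation, UMI collapsing, strand and choice of barcodes.

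Cells were barcodes of 500 or more UMIs and 300 or more genes (1000 and 991), with median depths of 3386 and 2509 UMIs. Counts were summed per library or class and scaled to CPM. Ratios have exact conditional Clopper-Pearson intervals, sums exact Poisson intervals and shares exact binomial intervals, all 95%. No test was run, as each dose had 1 library. For shares, classes and pairs, cells were thinned to 1000 UMIs. No doublet caller was run, and whether doublets were removed before deposit is likewise not stated. Doublets can join cells of different classes, and their part in cells that carried 2 or more of the genes was not tested. Named genes are the 6 members, up to 3 with the highest and 3 with the lowest ratio of each list, CSF1, IL6 and SAA4 (added after their values were seen), the 5 most alike per member and the cell type markers; a few genes under this rule are not reported here. The members and lists were chosen with earlier results of these data known. The libraries shared 0 barcodes, but 69 barcodes at 0 mM and 104 at 2 mM lay 1 base from a deeper one, and 96 and 95 ended in N. These were merged in an alternative. Other alternatives changed the cell filter, scaling (edgeR 4.0.16 TMM), weighting, thinning and class limits. The ratio intervals were checked on simulated Poisson sums with known folds, which hold no extra spread between cells. Shares, classes and pairs were not checked in that way. Python 3.11.15, numpy 2.4.6, scipy 1.17.1 and R 4.3.3 were used. Promoters came from RefSeq (GRCh38.p14) and transcripts from GENCODE 29, both of another build than the counts.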

Additional observations from a re-analysis of the deposited data

Results flagged for a closer look

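SLPI, the leukocyte protease inhibitor, had opposite ratios of 2 mM over 0 mM in cells of different cycle phases, which is why it is listed. In cells with 3 or more UMIs of the G2/M genes the ratio was 4.30 (2.11 to 9.46), from 11 UMIs at 0 mM and 32 at 2 mM. In cells with 3 or more UMIs of the S-phase genes and fewer of the G2/M genes it was 0.164 (0.0428 to 0.454), from 41 and 4 UMIs in 76 and 52 cells. A single 0 mM cell held 32 of those 41 UMIs. Without the top cell of each library the S-phase ratio was 0.731 (0.165 to 2.62), from 9 and 4 UMIs, and the G2/M ratio was again 4.30. The difference between the phases was not tested.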

How the results depend on the processing

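No paired analysis was possible because each dose was 1 library with no shared replicate, and for the same reason no replicate could be left out. Of 258 values recomputed under alternatives, 189 moved by less than their counting interval (counts of genes, by less than 1.5 times) and 68 by more, and 1 that had passed 1.5-fold turned direction. The limits are depth and the single libraries: DEFB1 at 0 mM rests on 12 UMIs, SLPI on 92, and SLPI and DEFB1 gave no ratio without the 5% of cells with the most of the gene, since at 0 mM all of their UMIs lay there.

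That value was LCN2 in interferon-high over interferon-low cells at 2 mM, which was 0.953 with the upper 10% as interferon-high and 2.23 with the upper 40%. At 0 mM it was 0.460 with the upper 10%. The cause was not tested. In all, 4 ratios between classes crossed 1, the others being SAA2 at 2 mM and PTX3 at 0 mM (both 1.01) in cycling over low-cycle cells with a limit of 2 UMIs and DEFB1 at 2 mM (0.922) with a limit of 5. Of 60 recomputed differences between carriers and other cells, 15 crossed 0, all of them differences whose groups' intervals overlapped.

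Ratios between doses kept their direction. SAA1 was 2.27 with TMM scaling, 2.5 with cells weighted equally and 2.88 without the 5% of cells with the most of it; the SAA pair added together was 2.56, with 0.722 for interferon-high over interferon-low cells at 0 mM and 33.7 points in the share of cells. SAA2 was 4.40, LCN2 49.3 and PTX3 0.343 without those cells. PTX3 was 0.390 with cells weighted equally and 0.556 at the class shares of 0 mM. SLPI was 1.92 with equal weights and 1.93 without its top cells. Without the CPM minimum, 1042 genes were higher and 544 lower, and with TMM scaling 148 were higher and 216 lower.

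Differences in the share of cells moved with the depth per cell, and for SAA1 not in 1 direction. At 500 UMIs SAA1 differed by 31.7 points, LCN2 by 6.67, DEFB1 by 3.13 and PTX3 by -6.26. At 2000 UMIs SAA1 differed by 33.4, SAA2 by 35.8, LCN2 by 16.8, DEFB1 by 8.61 and SLPI by 3.48 points. Unthinned, SAA1 differed by 23.1, LCN2 by 17.7, DEFB1 by 12.2 and PTX3 by -23.6 points. For cells with 2 or more UMIs, SAA2 differed by 16.6, LCN2 by 3.43, DEFB1 by 0.394 (-0.452 to 1.27) and PTX3 by -3.50 points. SAA1 in LCN2 carriers minus others at 2 mM was 2.76 points at 2000 UMIs and 3.86 with near barcodes merged.

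For interferon-high over interferon-low cells, SAA1 was 0.917 at 0 mM and 0.878 at 2 mM with the upper 10%, and 0.656 and 0.892 with the upper 40%, where PTX3 was 2.20 and 3.43. SLPI at 0 mM was 4.37 without its top cell. For cycling over low-cycle cells with a limit of 5 UMIs, SAA1 was 0.692 and 0.717, SAA2 0.558 and 0.715, PTX3 0.664 and 0.589, and SLPI at 0 mM 0.125. With a limit of 2 UMIs, SAA1 was 0.632 and 0.936, SAA2 0.568 and 1.01, PTX3 at 0 mM 1.01, LCN2 at 2 mM 0.642 and DEFB1 at 2 mM 2.69. SLPI at 0 mM was 0.287 without its top cell.

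Without the CPM minimum, the acute phase list had 5 genes higher and 1 lower, the antimicrobial list 4 and 1, the receptors 3 and 1, the inducers 9 and 1, and 7 chemokines and cytokines were higher. With TMM scaling 0 antimicrobial genes and 2 chemokines and cytokines were higher.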
